A study of Mus musculus with 17 samples.

Results

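The genes described here are 10 genes of the contractile actin and myosin apparatus that are known targets of serum response factor, or that encode the factor itself: Srf, Acta2, Actg2, Myl9, Tpm1, Tpm2, Cnn1, Cnn2, Tagln and Tagln2. They were taken by symbol from the 52850 gene symbols of the deposited mouse tables, and each symbol stood on 1 entry. The rule that chose them sets no threshold on a measured value. The 10 genes and the gene lists below were, however, chosen with earlier results of these data known. Counts of called genes beside the shares of all genes are therefore descriptions and not independent tests. Serum response factor binds DNA at a sequence called the CArG box and works with partner proteins of either of 2 classes. The MRTF and myocardin partners are tied to the state of actin, since MRTF proteins bind monomeric actin and enter the nucleus when actin is polymerised, and they drive cytoskeletal and smooth muscle genes. The ternary complex factors (Elk1, Elk3, Elk4) answer to growth factor signals and drive immediate early genes. In normal brain the smooth muscle members of the set are known mainly from the muscle cells around blood vessels, while actin-based contraction is used by many dividing and migrating cells.

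The study concerns YAP fusion proteins in supratentorial ependymoma, a forebrain tumour, and asked about their phase separation. RNA-seq of total RNA was analysed in 12 libraries, and the 5 chromatin samples of the series were not analysed here. The YAP-M group was 4 libraries of mouse brain tumours that followed in utero electroporation of a construct named YAP-M, and the labels do not name its promoter or the cells that received it. The YMdIDR group was 3 libraries labelled as overexpressing YAP-MΔIDR, and one label calls the source brain tumour tissue while another calls it neural progenitors derived from ES cells. The SVZ group was 3 libraries labelled wild-type, although other labels of the same libraries say brain tumour. The NSC-YAP group was 2 libraries of ES-derived neural progenitors overexpressing YAP, in culture. No label says whether replicates were separate animals or cultures, so the p-values below measure only the spread between these samples, and ages and strains are not given in the labels used here.

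Total counts per library ran from 20784130 to 25463303, so that 3 counts corresponded to 0.110 to 0.147 CPM (counts scaled to a common library size, with the TMM correction of edgeR). The mouse gene Yap1 stood at 92.7 to 105 CPM in YAP-M, 183 to 1274 CPM in YMdIDR, 238 to 241 CPM in NSC-YAP and 21.5 to 27.9 CPM in SVZ. How far these counts came from the constructs or from the cells' own gene is not given in the sources used here. The summed neural stem and progenitor markers Nes, Sox2, Vim and Pax6 stood at 2814 to 3014 CPM in NSC-YAP, 1665 to 2283 CPM in YAP-M, 2654 to 3808 CPM in YMdIDR and 154 to 180 CPM in SVZ. The neuron markers Map2, Dcx, Rbfox3 and Snap25 summed to 2357 to 2548 CPM in SVZ, 119 to 337 CPM in YAP-M, 32.2 to 129 CPM in YMdIDR and 717 to 789 CPM in NSC-YAP, and the myelin gene Mbp stood at 13015 to 16075 CPM in SVZ, 334 to 1430 CPM in YAP-M, 206 to 625 CPM in YMdIDR and 2.41 to 2.85 CPM in NSC-YAP. These cell type markers therefore differ between SVZ and the other groups in every comparison with SVZ below, and their part in the results was not tested. The YMdIDR libraries held 158 to 221 CPM of 6 endothelial markers, against 22.2 to 23.1 CPM in the cultured NSC-YAP libraries. Mitochondrial genes took 12.7% to 17.0% of the counts in SVZ and 4.91% to 7.05% in the other groups. In bulk samples such as these, fewer cells of a type and less RNA per cell cannot be told apart.

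Promoter windows of RefSeq (assembly GRCm38.p6, 300 bases from 250 before to 50 after a gene's start) were given for 8 of the 10 genes, all but Actg2 and Tagln. They are shown because the CArG box is the sequence at which the factor binds DNA. A CArG box was found on either strand in 3 of the 8 windows, those of Srf, Cnn2 and Myl9, and in 1.63% of all 32851 windows. Each of these 3 sequences runs 5′ to 3′ on the gene's strand and stops before the transcribed part, and capitals mark the CArG boxes.
Srf, chr17:46556163-46556412, minus strand: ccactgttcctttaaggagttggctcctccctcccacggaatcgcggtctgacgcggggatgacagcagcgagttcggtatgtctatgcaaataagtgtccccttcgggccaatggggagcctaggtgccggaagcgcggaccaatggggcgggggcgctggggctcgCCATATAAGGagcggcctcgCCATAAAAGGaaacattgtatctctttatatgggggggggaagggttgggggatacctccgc
Cnn2, chr10:79988350-79988583, plus strand: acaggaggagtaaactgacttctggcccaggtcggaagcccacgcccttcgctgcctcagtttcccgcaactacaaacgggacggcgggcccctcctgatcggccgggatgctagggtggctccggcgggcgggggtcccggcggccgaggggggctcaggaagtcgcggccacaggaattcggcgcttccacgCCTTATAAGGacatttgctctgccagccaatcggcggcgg
Myl9, chr2:156775214-156775419, plus strand: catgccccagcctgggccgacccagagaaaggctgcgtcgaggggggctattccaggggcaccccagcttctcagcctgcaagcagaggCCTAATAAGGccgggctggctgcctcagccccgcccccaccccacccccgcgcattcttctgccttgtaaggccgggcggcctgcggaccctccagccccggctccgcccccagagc
The Srf window holds a pair of boxes, whose first bases lie at -82 and -62 from the RefSeq start, while the single boxes of Cnn2 and Myl9 begin at -56 and -161.

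Acta2, the gene with the highest level per length in the tumours, has no exact CArG box in its window but holds 2 sites that differ from one by 1 letter, at -84 and -34. Sites with 1 letter off stood in 4 of the 8 windows (Acta2, Tpm1, Srf and Myl9) and in 19.9% of all windows, so they are common. GGAATG, a core of the motif bound by TEAD, the DNA-binding partner of YAP, was searched on both strands (CATTCC on the other) and stood in the windows of Acta2, Tpm1 and Tagln2, 3 of 8, against 14.7% of all windows. In the sequences that follow, capitals mark GGAATG on either strand and, in Acta2 alone, also the CArG boxes with 1 letter off. All run 5′ to 3′ on the gene's strand, and that of Acta2 stops before the transcribed part. The short stretches of Tpm1 and Tagln2 lie before the RefSeq start but inside the gene span deposited with the counts. None of these matches overlaps another.
Acta2, chr19:34255374-34255623, minus strand: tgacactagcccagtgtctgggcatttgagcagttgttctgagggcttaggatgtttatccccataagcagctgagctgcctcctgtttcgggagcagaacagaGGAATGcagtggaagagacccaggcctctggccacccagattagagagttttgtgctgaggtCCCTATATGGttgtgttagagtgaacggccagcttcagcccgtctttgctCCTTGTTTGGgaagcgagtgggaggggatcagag
Tpm1, chr9:67049254-67049279, minus strand: gctgtcctaaGGAATGcggtcgcccc
Tagln2, chr1:172500118-172500143, plus strand: ctttacggctCATTCCtgcctactga
Tagln2, chr1:172500156-172500181, plus strand: agcgctccagCATTCCacgcggcggc
A match in these windows is a description of the letters and not a measured binding site, and the windows of Cnn1 and Tpm2 held neither motif.

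Across the groups the set was high in YAP-M and YMdIDR and low in SVZ and NSC-YAP. Its summed level was 4011 to 5188 CPM in YAP-M and 4301 to 8335 CPM in YMdIDR, against 287 to 303 CPM in SVZ and 418 to 440 CPM in NSC-YAP. In the high groups Acta2 and Tpm1 carried most of this sum, with means of 1949 and 1534 CPM in YAP-M and 2478 and 1716 CPM in YMdIDR. Tagln2 was an exception in NSC-YAP, at 104 to 115 CPM beside 134 to 243 CPM in YAP-M. A gene was called when edgeR's quasi-likelihood test gave a Benjamini-Hochberg adjusted p under 0.05 over the 18329 genes tested and the log2 fold change was at least 1 in size. All 10 genes passed the filter on low counts. Between YAP-M and SVZ, 9 of the 10 were called higher and 0 lower, where the shares among all tested genes were 25.8% and 28.9%. The median log2 fold change of the 10 was 4.35 and that of all tested genes -0.04. Between YMdIDR and SVZ all 10 were called higher and 0 lower (26.9% and 29.6% of all genes), with a median of 4.97 beside -0.01. These comparisons share the SVZ libraries. Every YAP-M and every YMdIDR library lay above every SVZ library for each of the 10 genes, as 38.4% and 39.5% of all tested genes did; 0 genes of the set had all libraries below SVZ, where 42.4% and 41.6% of all genes did.

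**Figure D1:**
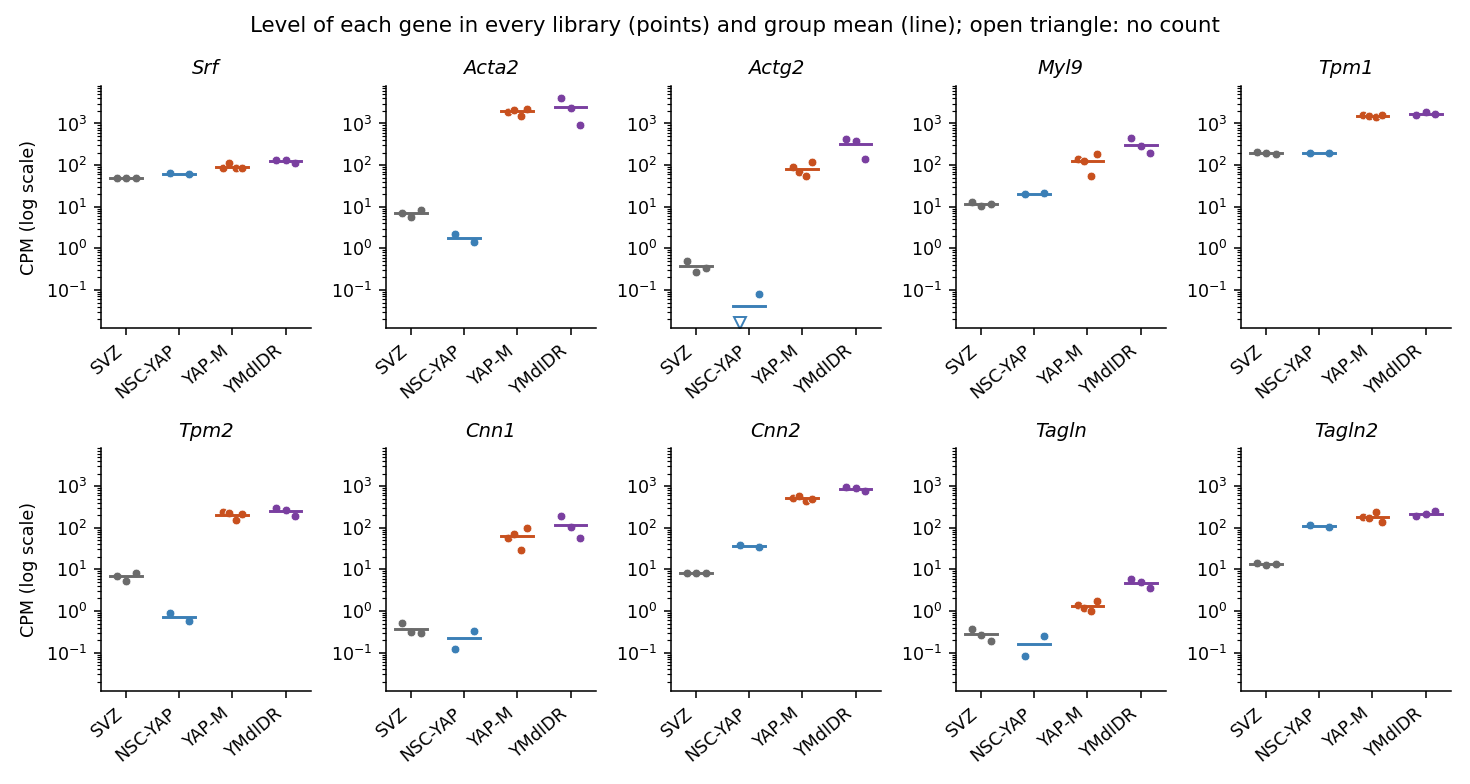
Level of each of the 10 genes in CPM on a log axis, with 1 point per library, a line at the group mean and an open triangle for a library with no count. The YAP-M and YMdIDR points lie above all SVZ points in every panel, by the smallest margin for Srf and by the largest for Acta2, Actg2 and Cnn1.

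Srf, the transcription factor itself, differed least of the 10 genes from SVZ in both high groups. It stood at 86.5, 110.0, 83.7 and 86.7 CPM in YAP-M, 131, 131 and 113 CPM in YMdIDR, 48.3, 49.0 and 48.5 CPM in SVZ and 63.9 and 59.8 CPM in NSC-YAP. The groups did not overlap and stood in the order SVZ, NSC-YAP, YAP-M, YMdIDR. The log2 difference from SVZ was 0.92 ± 0.11 (SE) in YAP-M, a size just under the 1 needed for a call. Its adjusted p was 1.32e-05 by edgeR's quasi-likelihood test. Srf passed the call in 7 of 17 alternatives, reaching 1.04 without YAP-M replicate 1 and 1.07 without replicate 3. Among the 7 is the adjusted p alone, which drops the size limit, so that Srf had to pass there. In YMdIDR the log2 difference from SVZ was 1.36 ± 0.11 and Srf was called higher (adjusted p = 9.57e-07). NSC-YAP differed from SVZ by 0.35 ± 0.12, which was not called.

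Acta2 and Actg2 encode the smooth muscle alpha and gamma actins, which build the thin filaments of contractile cells. Acta2 stood at 1922, 2057, 1541 and 2277 CPM in YAP-M and at 4147, 2346 and 940.2 CPM in YMdIDR. It stood at 7.14, 5.53 and 8.55 CPM in SVZ and at 2.20 and 1.39 CPM in NSC-YAP. The mean of YAP-M was 276 times that of SVZ, and YMdIDR spanned the whole range of YAP-M. The log2 fold change against SVZ was 8.11 ± 0.55 in YAP-M (adjusted p = 2.34e-07) and 8.45 ± 0.56 in YMdIDR (adjusted p = 1.73e-07, both edgeR's quasi-likelihood test). Acta2 was one of the 2 genes of the set called lower in NSC-YAP than in SVZ (log2 -1.98 ± 0.55, adjusted p = 0.00804), on 88 counts in all in NSC-YAP; without NSC-YAP replicate 2 the value was -1.67 and the adjusted p 0.0723, and after quantile normalization -0.83 and 0.139. In level per exon length (RPKM), Acta2 ranked first of the 10 genes in YAP-M, at 1094 ± 173 RPKM (SD, n = 4), and in YMdIDR, but 5th in SVZ.

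Actg2 was lower than Acta2 in every group and was nearly absent outside the 2 high groups. It stood at 89.8, 66.6, 53.5 and 118 CPM in YAP-M and 435, 371 and 143 CPM in YMdIDR. SVZ had 0.507, 0.270 and 0.342 CPM, from 24 counts over 3 libraries, and NSC-YAP had 2 counts in all, with 0 in replicate 1. All YMdIDR libraries lay above all YAP-M libraries, and both groups lay far above the rest. Against SVZ the log2 fold change was 7.76 ± 0.58 in YAP-M (adjusted p = 4.49e-07) and 9.71 ± 0.61 in YMdIDR (adjusted p = 1.19e-07). Against the 2 counts of NSC-YAP, the ratio was 2033 for YAP-M, with a 95% interval of 563 to 16790 from counting error only.

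The make-up of the actin family shifted with these genes. Per exon length, Acta2 made up 34.1% to 36.1% of the 6 actins in the YAP-M libraries and 14.0% to 40.1% in the YMdIDR libraries. In SVZ its share was 0.43% to 0.66% and in NSC-YAP 0.04% to 0.06%. The cytoplasmic actins Actb and Actg1 filled the rest almost wholly in SVZ (48.5% ± 1.4 and 50.5% ± 1.6, SD, n = 3), and both were themselves called higher in YAP-M than in SVZ (log2 1.51 ± 0.10 and 1.34 ± 0.15). Of the striated muscle actins, Acta1 was not called between YAP-M and SVZ (0.33 ± 0.55). Actc1, the cardiac actin, stood at 7.74 to 18.5 CPM in YAP-M and 7.02, 35.8 and 233 CPM in YMdIDR, against 3 counts in all in SVZ. Actin genes are close copies of each other, and how the deposited counts treated reads that fit several of them is not given in the sources used here, so small shares such as those of Acta1 and Actc1 are uncertain.

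**Figure D2:**
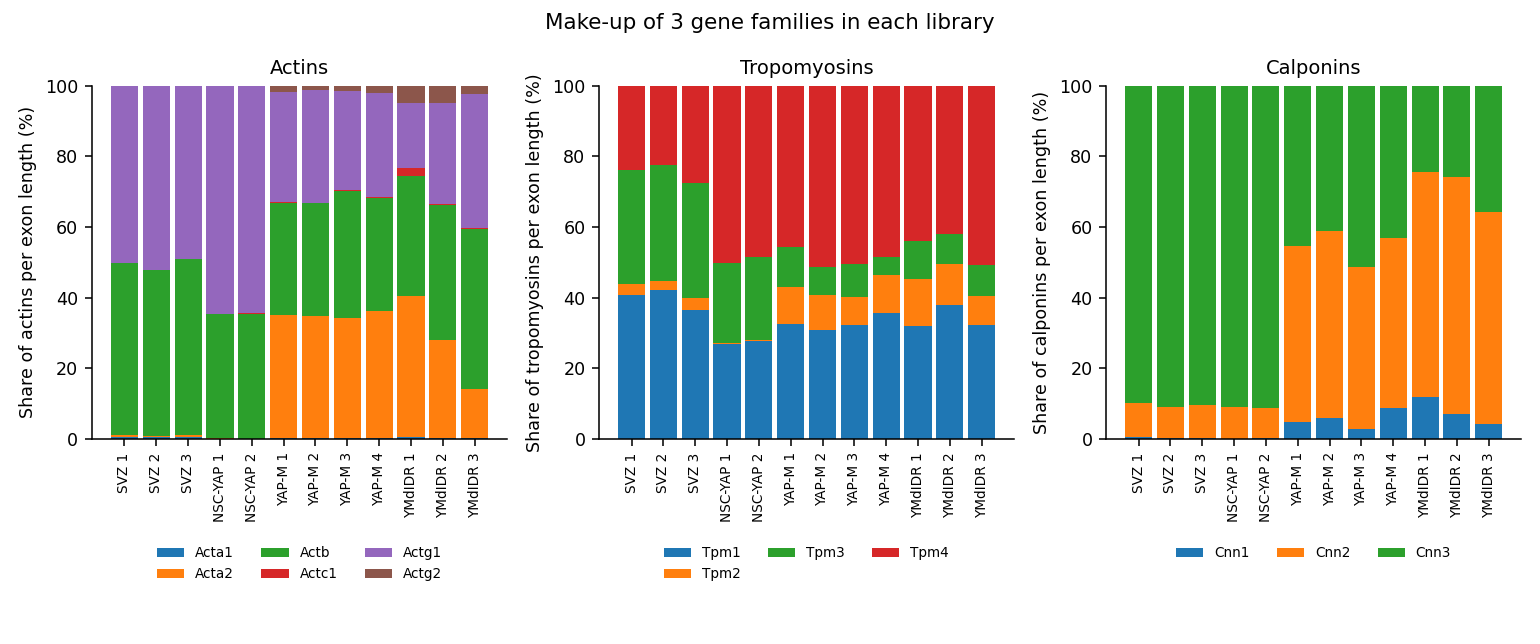
Share of each gene in the summed level per exon length (%) of the actins, tropomyosins and calponins, with 1 stacked bar per library. Acta2 takes 14.0% to 40.1% of the actins in YAP-M and YMdIDR and under 1% in SVZ and NSC-YAP, and Cnn3 is the main calponin in SVZ and NSC-YAP but Cnn2 in YMdIDR.

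Myl9 encodes a regulatory light chain of smooth muscle and nonmuscle myosin, whose phosphorylation switches the motor on. It stood at 137, 129, 55.1 and 186 CPM in YAP-M, 436, 293 and 191 CPM in YMdIDR, 12.7, 10.2 and 11.6 CPM in SVZ and 20.4 and 20.9 CPM in NSC-YAP. The 4 groups did not overlap, and YAP-M replicate 3 was well under the other YAP-M libraries. The log2 fold change against SVZ was 3.46 ± 0.40 in YAP-M (adjusted p = 1.31e-05) and 4.74 ± 0.44 in YMdIDR (adjusted p = 2.01e-06), both by edgeR's quasi-likelihood test, and the NSC-YAP difference of 0.85 ± 0.43 was not called. Per exon length Myl9 was 7.27% ± 0.39 of the light chains Myl9, Myl12a and Myl12b in SVZ (SD, n = 3), where Myl12b held 84.2%. In YAP-M it was 27.01% ± 9.77 (SD, n = 4) beside 51.0% for Myl12a, a nonmuscle light chain that was itself called higher (log2 4.11 ± 0.11), and in YMdIDR it was 45.5% ± 11.1 (SD, n = 3).

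Tpm1 and Tpm2 encode tropomyosins, coiled proteins that lie along actin filaments and control the access of myosin. Tpm1 stood at 1618, 1522, 1407 and 1589 CPM in YAP-M, 1561, 1924 and 1664 CPM in YMdIDR, 204, 195 and 189 CPM in SVZ and 199.99 and 196 CPM in NSC-YAP. It fell into a high pair of groups and a low pair, with overlap inside each pair. Its log2 fold change against SVZ was 2.97 ± 0.10 in YAP-M (adjusted p = 3.13e-09) and 3.13 ± 0.11 in YMdIDR (adjusted p = 2.5e-09), and the NSC-YAP difference was 0.01 ± 0.11. Its share of the tropomyosins per length was 32.8% ± 2.1 in YAP-M and 39.8% ± 3.0 in SVZ.

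Tpm2, the form typical of muscle, stood at 239.6, 222, 151 and 211 CPM in YAP-M and 289.7, 262 and 195 CPM in YMdIDR, and these groups overlapped. SVZ had 7.0, 5.26 and 8.11 CPM, and NSC-YAP, with 0.896 and 0.571 CPM, was lowest. The log2 fold change against SVZ was 4.92 ± 0.25 in YAP-M (adjusted p = 3.39e-08) and 5.20 ± 0.25 in YMdIDR (adjusted p = 2.34e-08). In NSC-YAP Tpm2 was called lower than in SVZ by edgeR's quasi-likelihood test, at log2 -3.20 ± 0.33 (adjusted p = 7.62e-06). Tpm2 made up 9.76% ± 1.38 of the tropomyosins per length in YAP-M and 0.22% ± 0.06 in NSC-YAP, while the nonmuscle Tpm4 took 49.0% and 49.3% there.

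Cnn1 and Cnn2 encode calponins, actin-binding proteins that restrain myosin; Cnn1 is restricted largely to smooth muscle and Cnn2 is found in many cell types. Cnn1 stood at 55.3, 70.1, 29.0 and 98.1 CPM in YAP-M, 193, 103 and 57.0 CPM in YMdIDR, 0.507, 0.315 and 0.293 CPM in SVZ and 0.122 and 0.326 CPM in NSC-YAP. The high groups overlapped with each other, as did the low ones. Its log2 fold change against SVZ was 7.39 ± 0.67 in YAP-M (adjusted p = 1.88e-06) and 8.29 ± 0.69 in YMdIDR (adjusted p = 9.26e-07), resting on 24 counts in SVZ.

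Cnn2 gave the smallest p of the set against SVZ, and its libraries lay close together within each group. It stood at 528, 567, 446 and 487 CPM in YAP-M, 941, 907 and 748 CPM in YMdIDR, 8.38, 8.00 and 8.16 CPM in SVZ and 37.8 and 34.5 CPM in NSC-YAP. The groups did not overlap and stood in the order SVZ, NSC-YAP, YAP-M, YMdIDR. The log2 fold change against SVZ was 5.95 ± 0.14 in YAP-M (adjusted p = 1.29e-09), 6.72 ± 0.15 in YMdIDR (adjusted p = 5.72e-10) and 2.14 ± 0.13 in NSC-YAP (adjusted p = 1.91e-07, all edgeR's quasi-likelihood test). In SVZ and NSC-YAP the related calponin Cnn3 held 90.5% and 91.2% of the calponins per length. In YAP-M Cnn2 held 49.3% ± 3.0 and Cnn3 45.2% ± 4.5 (SD, n = 4), although Cnn3 was also called higher there (log2 2.52 ± 0.11).

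Tagln and Tagln2 encode transgelins, small actin-bundling proteins, of which Tagln is a classical smooth muscle gene and Tagln2 is broadly expressed. Tagln2 stood at 183, 174, 243 and 134 CPM in YAP-M, 196, 211 and 246 CPM in YMdIDR, 13.9, 12.4 and 13.7 CPM in SVZ and 115 and 104 CPM in NSC-YAP. NSC-YAP lay nearer to the high groups than to SVZ. Its log2 fold change against SVZ was 3.78 ± 0.20 in YAP-M (adjusted p = 4.35e-08), 4.03 ± 0.20 in YMdIDR (adjusted p = 2.8e-08) and 3.04 ± 0.21 in NSC-YAP (adjusted p = 3.94e-07). Its neural relative Tagln3 went the other way (log2 -3.11 ± 0.35 in YAP-M against SVZ), from 94.7% of the transgelins per length in SVZ to 13.7% in YAP-M.

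Tagln had few counts. It stood at 1.40, 1.15, 1.02 and 1.71 CPM in YAP-M, 5.77, 4.91 and 3.58 CPM in YMdIDR, 0.368, 0.270 and 0.195 CPM in SVZ and 0.0814 and 0.245 CPM in NSC-YAP. YMdIDR lay above YAP-M and YAP-M above the low groups, which overlapped each other, and the log2 fold change against SVZ was 2.22 ± 0.38 in YAP-M (adjusted p = 0.00022) and 4.07 ± 0.39 in YMdIDR (adjusted p = 2.6e-06, edgeR's quasi-likelihood test). After quantile normalization with limma the YAP-M value was 0.74 and no longer called. Per exon length Tagln was at 0.664 ± 0.152 RPKM in YAP-M (SD, n = 4), last of the 10 genes. In the deposited tables Tagln (mm10, chr9:45929619-45936058, minus strand) shares 3627 bases with the gene AC122273.2 on the other strand, which had 15 to 45 counts per library, and 108 bases with Pcsk7. How reads over 2 genes were counted is not given, so the level of Tagln is uncertain, and the part of this overlap in its low counts was not tested.

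**Figure D3:**
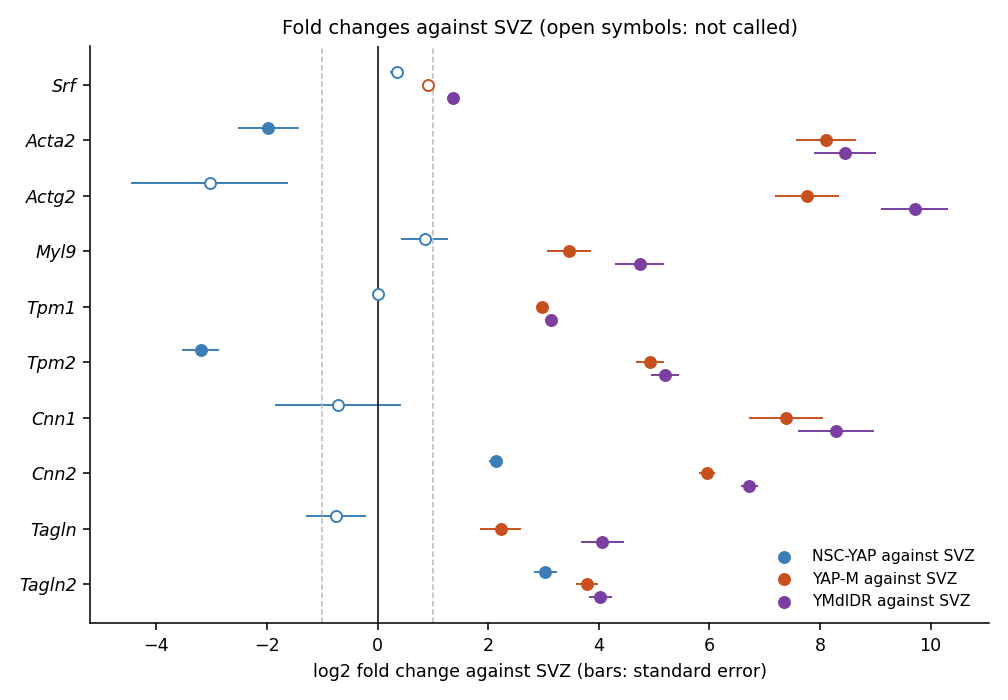
Log2 fold change of each gene against SVZ in NSC-YAP, YAP-M and YMdIDR, with the standard error as a bar; filled symbols are called genes and dashed lines mark a size of 1. YAP-M and YMdIDR lie to the right for all 10 genes, from 0.92 (Srf) to 9.71 (Actg2), while NSC-YAP lies on both sides of 0.

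NSC-YAP, which overexpresses YAP itself, differed from SVZ in both directions. Of the 10 genes 2 were called higher (Tagln2 and Cnn2) and 2 lower (Acta2 and Tpm2), where 17.5% of all tested genes were called up and 27.6% down. Both NSC-YAP libraries lay above all SVZ libraries for 4 genes and below them for 3, beside 39.7% and 45% of all genes. The median log2 fold change of the 10 was -0.35 and that of all genes -0.10. Quantile normalization moved the median of all genes to 0.18 and left 1 gene called lower, as did leaving out NSC-YAP replicate 2. Actg2 (-3.04 ± 1.42), Tagln (-0.76 ± 0.54) and Cnn1 (-0.72 ± 1.15) were not called, and each changed sign under that normalization, while DESeq2 called Actg2 lower (-3.21, adjusted p = 0.00953).

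Set directly against NSC-YAP, YAP-M had 8 genes called higher and 0 lower (28.9% and 21.6% of all tested genes), all but Srf (0.57 ± 0.12) and Tagln2 (0.75 ± 0.20). All 10 genes lay above NSC-YAP in every YAP-M library, as did 42% of all genes (39.2% lay below), and in every YMdIDR library, as did 41.7% (37.5% below). Acta2 differed most among those with enough counts for a fold change, by log2 10.08 ± 0.73 (adjusted p = 4.01e-07), followed by Tpm2 at 8.12 ± 0.37 (adjusted p = 1.43e-08, both edgeR's quasi-likelihood test). Tagln, at 2.98 ± 0.47, was not called after quantile normalization (0.28). YMdIDR had 9 called higher and 0 lower (27.4% and 20.4% of all genes). Tagln2 missed the call there at 0.99 ± 0.21 and Srf passed it at 1.01 ± 0.13, both at the edge: Srf dropped to 0.98 without YMdIDR replicate 1 or replicate 2 and to 0.95 without NSC-YAP replicate 2. Tagln2 passed the call in 11 of 15 alternatives, among them DESeq2 (1.04), median-ratio scaling (1.04) and quantile normalization (1.03). It reached 1.06 without YMdIDR replicate 1, 1.02 without replicate 2 and 1.05 without NSC-YAP replicate 1. The 11 also hold the adjusted p alone, which drops the size limit, so that Tagln2 had to pass there.

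The comparison of YAP-M with YMdIDR sets the full construct against the one labelled ΔIDR. No gene of the set was called higher in YAP-M and 3 were called lower, beside 9.61% and 6.78% of all tested genes. These were Actg2 (log2 -1.95 ± 0.36, adjusted p = 0.00157), Tagln (-1.84 ± 0.30, adjusted p = 0.000774) and Myl9 (-1.28 ± 0.35, adjusted p = 0.0122), by edgeR's quasi-likelihood test. Srf (-0.45 ± 0.10, adjusted p = 0.00571) and Cnn2 (-0.77 ± 0.11, adjusted p = 0.000299) had adjusted p-values under 0.05 with a size under 1. For these 5 genes every YAP-M library lay below every YMdIDR library, as for 22.5% of all tested genes, and for 0 genes was it above, beside 18.9% of all genes. Acta2 (-0.35 ± 0.37), Cnn1 (-0.90 ± 0.42), Tpm1 (-0.16 ± 0.09), Tpm2 (-0.27 ± 0.20) and Tagln2 (-0.25 ± 0.17) were not called, and their groups overlapped.

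Part of that comparison rested on single libraries. YMdIDR replicate 1 was the highest of its group for 8 of the 10 genes and replicate 3 the lowest for 8. The highest YMdIDR library had 4.41 times the Acta2 level of the lowest, against 1.48 times in YAP-M. Without YMdIDR replicate 1 the Acta2 difference changed sign to 0.25 and Myl9 fell short of a call at -0.94 (adjusted p = 0.0478). Cnn1 was called lower in YAP-M without YAP-M replicate 4 (-1.17) or without YMdIDR replicate 3 (-1.23). In YAP-M, replicate 3 was the lowest library for 9 of the 10 genes.

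**Figure D4:**
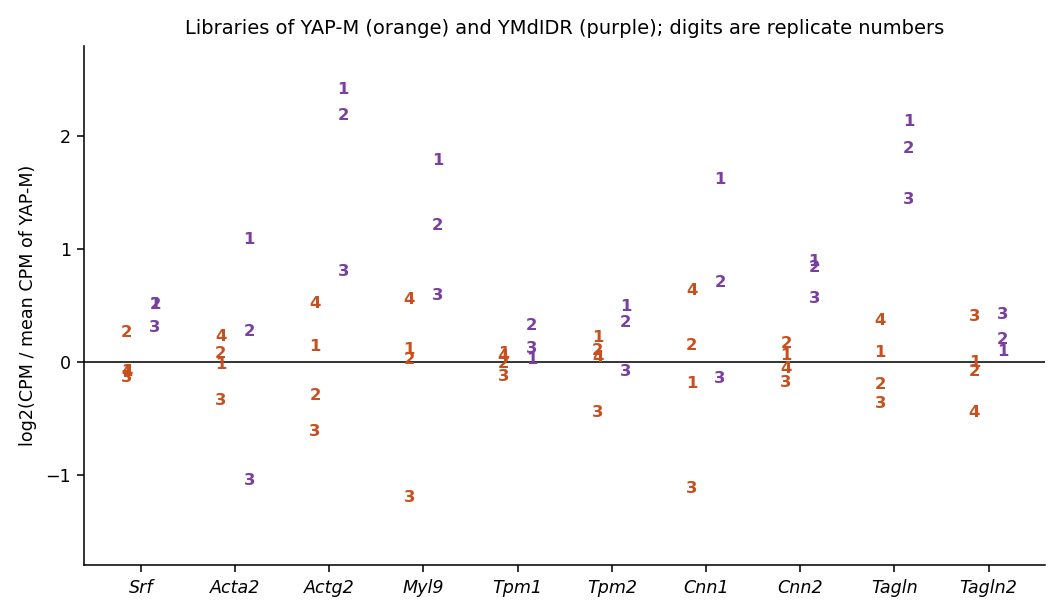
Level of each gene in the 4 YAP-M and 3 YMdIDR libraries as log2 of its CPM over the mean CPM of YAP-M, with each library drawn as its replicate number. All YMdIDR numbers lie above all YAP-M numbers for Srf, Actg2, Myl9, Cnn2 and Tagln, and YMdIDR replicate 3 lies lowest of all for Acta2.

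The summed level of fibroblast markers, of which Col1a2 was the highest in each of the YAP-M and YMdIDR libraries, had a like order of libraries, though not every marker did. The summed level of 6 fibroblast markers (Col1a1, Col1a2, Col3a1, Dcn, Lum and Pdgfra) was 1201, 1217, 402 and 1464 CPM in YAP-M and 1524, 825 and 338 CPM in YMdIDR, lowest in replicate 3 of each group as for Acta2 and Cnn1. Pdgfra was highest in YAP-M replicate 3 (55.9 CPM, against 32.5 to 41.5 CPM in the others) and lowest in YMdIDR replicate 2, and Lum was highest in YMdIDR replicate 2 (8.38 CPM). The sum of the 6 markers was 194 to 233 CPM in SVZ and 50.9 to 53.2 CPM in NSC-YAP, with Lum at 0 in both NSC-YAP libraries. Against SVZ, YAP-M had 4 of the 6 markers called higher and 1 lower, where 25.8% and 28.9% of all genes were, with Col1a2, a chain of type I collagen, at log2 3.79 ± 0.60 and Pdgfra, which oligodendrocyte precursors also express, at -1.30 ± 0.25. Yap1 ran the other way in YMdIDR, at 183, 838 and 1274 CPM in replicates 1, 2 and 3. Yap1 counts may join the construct and the cells' own gene. Whether fibroblasts or the level of the construct had a part in the spread of Acta2, Cnn1 and Myl9 was not tested.

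The summed pericyte and endothelial markers did not follow the set in the same way, and smooth muscle genes are given further on. The 9 pericyte markers summed to 183 to 240 CPM in YAP-M and 211 to 216 CPM in YMdIDR, below the 306 to 373 CPM of SVZ, and 403 to 426 CPM in NSC-YAP. The NSC-YAP sum was carried by Cspg4 (202 CPM) and Notch3 (210 CPM), which neural progenitors also express, while Pdgfrb (0.163 CPM), Rgs5 (0.367 CPM) and Vtn (0.0407 CPM) were far below SVZ and Abcc9 and Higd1b were at 0 in both libraries. In YAP-M against SVZ 1 of the 9 was called higher (Pdgfrb, log2 1.00 ± 0.17) and 2 lower (Rgs5, -1.19 ± 0.21, and Vtn, -2.53 ± 0.33). The shares among all tested genes were 25.8% and 28.9%, here and for the endothelial and striated muscle lists that follow. The 6 endothelial markers summed to 244 to 357 CPM in YAP-M and 134 to 188 CPM in SVZ, with 3 called higher, among them Flt1 (log2 1.45 ± 0.20), and Cldn5 was at 0 in both NSC-YAP libraries. Of 6 tested striated muscle markers 1 was called higher (Ttn, 4.52 ± 0.60) and 4 lower, and the list of 8 summed to 12.2 to 51.0 CPM in YAP-M.

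**Figure D5:**
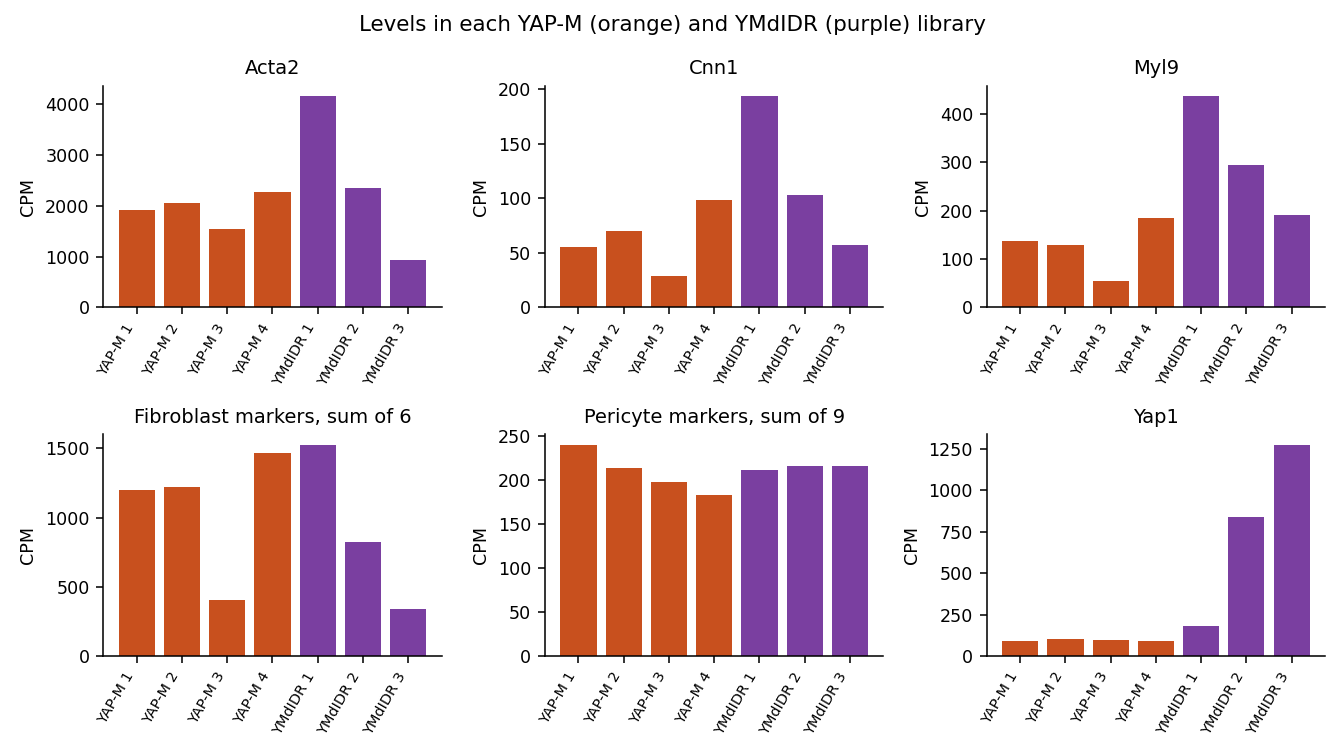
Level in CPM of Acta2, Cnn1, Myl9 and Yap1, and the summed CPM of 6 fibroblast and 9 pericyte markers, with 1 bar per YAP-M and YMdIDR library. In YMdIDR the fibroblast sum runs from 1524 to 338 CPM with Acta2 from 4147 to 940.2 CPM, while Yap1 runs from 183 to 1274 CPM and the pericyte sum stays at 211 to 216 CPM. Single pericyte markers, which differ in direction, are not drawn.

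Late smooth muscle genes mark fully contractile cells. Of 12 such genes, YAP-M had 4 called above SVZ and 5 below, beside 25.8% and 28.9% of all tested genes, with a median log2 fold change of -0.78. Myh11, the smooth muscle myosin heavy chain, stood at 72.0 to 145 CPM in YAP-M, 271 to 353 CPM in YMdIDR, 2.88 to 4.79 CPM in SVZ and 1.14 to 1.30 CPM in NSC-YAP. It was called higher in YAP-M than in SVZ (log2 5.03 ± 0.29, adjusted p = 9.03e-08) and lower in YAP-M than in YMdIDR (-1.39 ± 0.23, adjusted p = 0.000808, edgeR's quasi-likelihood test). Smtn, which encodes the actin-binding smoothelin, was higher by 2.21 ± 0.13, whereas Casq2, a calcium store protein, and Ldb3, a Z-disc protein, were lower at -2.93 ± 0.32 and -2.65 ± 0.24. Between YAP-M and YMdIDR, Lmod1, an actin nucleator, was lower (-1.45 ± 0.43) like Myh11, and Synm, an intermediate filament gene, was higher (1.80 ± 0.23).

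The partners of serum response factor differed in direction. Mkl1, the symbol in the tables for the partner MRTF-A, stood at 145 to 168 CPM in YAP-M and 128 to 194 CPM in YMdIDR, against 37.6 to 44.4 CPM in SVZ, with log2 1.87 ± 0.15 in YAP-M (adjusted p = 6.13e-07). Mkl2, for MRTF-B, was called lower in YAP-M than in SVZ, at -2.38 ± 0.10 (adjusted p = 1.43e-08, edgeR's quasi-likelihood test). Myocd, for myocardin, the partner specific to heart and smooth muscle, stayed low but was called higher, at 1.75 to 2.08 CPM in YAP-M beside 0.0899 to 0.293 CPM in SVZ, and had no count in NSC-YAP. Of the ternary complex factors, Elk3 was called higher in YAP-M (log2 1.90 ± 0.16), and Elk1 (-0.85 ± 0.14) and Elk4 (0.21 ± 0.11) were not called. None of the 6 partners was called between YAP-M and YMdIDR, with Elk3 nearest at -0.998 ± 0.14.

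Nonmuscle cytoskeletal genes of the MRTF branch were high together with the set in YAP-M and YMdIDR. Against SVZ, YAP-M had 18 of 20 such genes called higher and 0 lower, beside 25.8% and 28.9% of all tested genes. Their median log2 fold change was 2.87. Cald1, for caldesmon, which binds actin and tropomyosin, was at 4.70 ± 0.14, Tpm4 at 4.23 ± 0.15, the nonmuscle myosin heavy chain Myh9 at 3.55 ± 0.11 and Lima1, a filament cross-linker, at 3.38 ± 0.15. Cfl1 (0.22 ± 0.08) and Csrp1 (-0.89 ± 0.12) were not called. NSC-YAP, where the set was low, had 9 of the 20 called higher than in SVZ and 4 lower, beside 17.5% and 27.6% of all genes. The 20 genes summed to 8145 to 8434 CPM in NSC-YAP and 3672 to 3880 CPM in SVZ. Between YAP-M and YMdIDR 3 of the 20 were called lower in YAP-M and 0 higher, beside 6.78% and 9.61% of all tested genes. They were the focal adhesion genes Tgfb1i1 (-1.44 ± 0.20) and Tes (-1.26 ± 0.16) and the fibronectin receptor subunit Itga5 (-1.005 ± 0.10).

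Of 9 immediate early genes of the other branch, YAP-M had 4 called above SVZ and 3 below, beside the same 25.8% and 28.9% of all genes. Ier2 (log2 2.36 ± 0.12), Junb (1.58 ± 0.09) and Mcl1 (1.33 ± 0.09) were higher and Egr3 (-4.28 ± 0.22) was lower. Fosb, an AP-1 subunit, was the only one called between YAP-M and YMdIDR (1.84 ± 0.25). The 11 relatives of the set share Actb, Actg1 and Tpm4 with the nonmuscle list. In YAP-M against SVZ 8 of the 11 were called higher and 1 lower, beside 25.8% and 28.9% of all genes. Tpm3 (1.31 ± 0.23) and Myl6 (1.13 ± 0.13) were among the higher ones, while Myl12b (-0.42 ± 0.12) was not called.

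Genes outside the lists whose pattern was nearest to the set were Csf1, a macrophage growth factor (Pearson r = 0.997 over the 12 libraries with the mean of the standardised log2 levels of the 10 genes), Timp1, a metalloproteinase inhibitor (0.997), Rpl34-ps1, a ribosomal pseudogene (0.995), and the lysosomal genes Ifi30 (0.995) and Ctsz (0.995). The 10 genes themselves had values from 0.83 (Tagln2) to 0.99 (Actg2). With 12 libraries in 4 groups, r mainly reflects the order of the group means. Csf1 stood at a mean of 389 CPM in YAP-M, 709 CPM in YMdIDR, 27.2 CPM in SVZ and 38.1 CPM in NSC-YAP.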

How the data were processed

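RNA-seq of 12 mouse libraries was analysed. The authors deposited whole-number counts per gene, 1 library a table, without normalization, for 53090 entries; entries that share a symbol were summed to 52850 symbols. Reads were aligned with TopHat2 to mm10, per the submitters' processing notes. Which program counted the reads, with what annotation, and how it treated strand and reads over several genes is not given in the sources used here.

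Groups and replicate numbers came from the sample titles. CPM values used TMM library sizes (factors 0.826 to 1.13), and RPKM values used the exon lengths in the tables. A gene was kept if 2 or more libraries reached 1 CPM, and the 18329 kept were tested with edgeR 4.0.16 (quasi-likelihood test, R 4.3.3), with 1 coefficient a group and all 12 libraries in 1 fit, so that the groups share 1 estimate of the spread. P-values were adjusted by Benjamini-Hochberg over all tested genes, and a call needed both an adjusted p below 0.05 and a size of 1 or more in log2 fold change. Numbers after ± are SE (the log2 fold change over the root of the F statistic) for fold changes and SD for levels and shares. Intervals and the floor of 3 counts cover counting error only, since PCR copies are not independent molecules. Each library was treated as 1 sample. No replicate pair was alike within sampling noise (chi-square per gene of at least 3.94, the lowest being that of the NSC-YAP pair). This check cannot tell separate animals or cultures from repeated preparations of 1 of them.

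The 10 genes, the gene lists, the tests and the rule for named genes were chosen with earlier results of these data known. Named were all 10 genes, all their relatives and partners, up to 4 called genes a list with the smallest adjusted p in YAP-M against SVZ and in YAP-M against YMdIDR, and the 5 genes with the nearest pattern and a group mean of at least 5 CPM; the marker lists are shown by fewer genes, and a few genes under this rule are not reported here. Yap1 was added as the mouse gene of YAP. Likeness used log2(CPM + 1). Promoters came from RefSeq. Alternatives included limma 3.58.1 after quantile normalization and DESeq2 1.42.0. Python 3.11.15 with matplotlib 3.10.9 drew the figures.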

Additional observations from a re-analysis of the deposited data

Results flagged for a closer look

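Srf in YAP-M replicate 2 stood at 110.0 CPM, apart from the 83.7 to 86.7 CPM of the other 3 YAP-M libraries: its gap to the nearest one, over the whole range of the group, passed the Dixon limit for 4 samples. Each of the 10 genes was looked at in YAP-M, and chance flags about 1 in 20 groups. The other groups were too small for this rule.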

How the results depend on the processing

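For the 60 values of the 10 genes (6 comparisons), 951 alternatives were run: 904 kept direction and side of the call, 8 lost a call, 28 gained one and 11 changed sign. The gained calls include those by the adjusted p alone, where the fit is unchanged and only the size limit is dropped. In NSC-YAP against SVZ, quantile normalization turned Actg2 to 0.0139, Tagln to 0.46 and Cnn1 to 0.48; Tpm1, near 0, turned to -0.0200 there, to -0.0199 with the replicate block, to -0.00432 with median-ratio scaling, to -0.00435 in DESeq2 and to -0.000203 without SVZ replicate 3 (-0.000203 to 0.0542 over the left-out libraries). In YAP-M against YMdIDR, quantile normalization turned Acta2 to 0.18 and Tpm1 to 0.0894, and Acta2 was 0.25 without YMdIDR replicate 1 (-0.74 to 0.25 over the left-out libraries). The cause was not tested. Genes called lower in NSC-YAP against SVZ numbered 1 under quantile normalization in place of 2, and those lower in YAP-M against YMdIDR numbered 5 with the adjusted p alone, which drops the size limit, in place of 3. Leaving out each library in turn gave 9 to 10 genes called higher for YAP-M against SVZ, 8 to 10 for YMdIDR against NSC-YAP, 2 to 4 called lower for YAP-M against YMdIDR and 1 to 2 called lower for NSC-YAP against SVZ. Srf in YAP-M against SVZ passed a size of 1 with no filter (1.05), without mitochondrial genes (1.01), after quantile normalization (1.004, where Tagln was lost) and in the compared groups alone (1.0035). Quantile normalization moved the median log2 fold change of all genes from -0.10 to 0.18 for NSC-YAP against SVZ (3691 higher and 3147 lower calls, against 3199 and 5061), from 0.10 to -0.14 for YAP-M against NSC-YAP (3337 and 4173, against 5293 and 3951) and from 0.13 to -0.09 for YMdIDR against NSC-YAP (3185 and 3807, against 5026 and 3744). Same-numbered libraries of different groups deviated together in 4 of 15 pairs (r over 0.1), with r from -0.10 to 0.39. Differently numbered ones did so in 2 of 38 pairs, with r from -0.28 to 0.26. Whether the numbers pair libraries is not settled by these values, and the main fit did not pair them. With the replicate number as a block, 9 genes were called higher in YAP-M against SVZ, 4 lower in YAP-M against YMdIDR (Cnn1 was added at -1.12) and 3 lower in NSC-YAP against SVZ (Actg2 was added at -3.29). Depth limits Actg2, Cnn1 and Tagln in SVZ and NSC-YAP, with 2 to 24 counts a group.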
